A study of Homo sapiens with 18 samples.

Results

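The 10 genes described here encode immune checkpoint ligands that tumour cells can display to lymphocytes and macrophages: CD274, PDCD1LG2, CD276, VTCN1, HHLA2, PVR, NECTIN2, LGALS9, CD47 and TNFRSF14. They were picked by gene symbol as a named set from 36601 gene IDs, with earlier results of these data known. Each symbol matched 1 ID. Polyadenylated RNA was sequenced in 18 libraries from HuCCT1, YSCCC and KKU-100, human cholangiocarcinoma cell lines whose labels give bile duct, liver and biliary tract as the tissue. Each line carried either shControl, a control hairpin labelled WT, or shRNF213#2, a hairpin against RNF213 labelled as a knockdown, in stable derivatives made by lentivirus, with 3 biological replicates per group. RNF213 encodes a large ubiquitin ligase with an ATPase core. KKU-100 grew in Ham's F12 and the other lines in RPMI-1640, all with 10% serum, so in contrasts with KKU-100 line and medium cannot be told apart. The knockdown was made with 1 hairpin, and the labels do not say whether a derivative was a clone or a pool. No immune cells were part of the cultures as labelled.

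Checkpoint ligands are surface or secreted proteins that engage receptors on immune cells and dampen, or for some members also support, their activity. CD274 (PD-L1) and PDCD1LG2 (PD-L2) bind PD-1 on T cells, and interferon-gamma acting through JAK1, JAK2 and IRF1 is the textbook inducer of CD274. PVR and NECTIN2 bind TIGIT and its activating rival CD226, LGALS9 binds the T cell receptor TIM-3 among other glycoproteins, TNFRSF14 (HVEM) binds BTLA and CD160, and CD47 tells macrophages not to engulf a cell by binding SIRPA. CD276 (B7-H3), VTCN1 (B7-H4) and HHLA2 (B7-H7) are further members of the B7 family.

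The promoters of CD274 and LGALS9 are shown because these were the ligands whose promoter windows held an interferon-stimulated response element, the letters GAAA, 2 bases of any kind and GAAA again, read on either strand, and because their levels are set beside interferon-stimulated genes further on. Each window runs from 250 bases before to 20 bases after the RefSeq start on the plus strand of GRCh38.p14, at chr9:5450292-5450561 for CD274 and chr17:27630938-27631207 for LGALS9, with the matched bases in capitals.
CD274: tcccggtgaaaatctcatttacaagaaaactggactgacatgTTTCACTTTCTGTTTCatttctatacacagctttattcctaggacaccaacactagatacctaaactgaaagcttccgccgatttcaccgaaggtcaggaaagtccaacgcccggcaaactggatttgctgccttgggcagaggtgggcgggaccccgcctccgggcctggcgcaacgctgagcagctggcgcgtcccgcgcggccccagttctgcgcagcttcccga
LGALS9: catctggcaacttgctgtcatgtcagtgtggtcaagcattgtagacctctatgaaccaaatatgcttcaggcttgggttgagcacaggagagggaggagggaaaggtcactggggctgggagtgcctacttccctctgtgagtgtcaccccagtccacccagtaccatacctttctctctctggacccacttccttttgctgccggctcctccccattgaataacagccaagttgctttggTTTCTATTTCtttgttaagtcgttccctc
The CD274 window held 2 overlapping matches, which together span bases -208 to -193 from the start, and the LGALS9 window held 1 match from base -9 up to the start itself. RefSeq windows were found for 9 of the 10 ligands, with 12 windows in all, and the other windows held no match. Of 35116 windows of the same length, 3.30% held this element. The gamma-activated sequence TTCNNNGAA, searched on both strands, occurred once in the CD274 window, at bases -125 to -117, and in no other window of the set, against 7.05% of all windows. A kappaB site, searched on both strands as GGGA, 1 base of any kind and TTTCC, occurred in none of them, against 0.538% of all windows. A match is a description of the letters and not a measured binding site.

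Library totals ran from 21056732 to 25502097 counts. RNF213 itself was lower in the shRNF213#2 library of all 9 pairs, with a mean effect of -1.01 on the log2 scale (SE 0.11, edgeR adjusted p = 0.000347), and within lines it was called in YSCCC and KKU-100 but not in HuCCT1 (-0.89, adjusted p = 0.136). Of 10 epithelial and biliary markers, KRT8, KRT18, KRT7 and SOX9 were present in every line, whereas EPCAM and KRT19 averaged 0.0222 and 0.0385 CPM (counts scaled to library size) in KKU-100 against 349 and 1763 CPM in HuCCT1. CDH1, the epithelial cadherin, averaged 1.87 CPM in KKU-100, 244 CPM in HuCCT1 and 1027 CPM in YSCCC, so KKU-100 nearly lacked 3 epithelial markers, and whether this bears on its ligand levels was not tested. Summed over 10 leukocyte markers, the level was 45.4 to 119 CPM over all libraries, most of it CD68, and 5 of the 10, among them CD3E and CD3D, stayed under 1 CPM everywhere. YSCCC also held LUM, a fibroblast marker, at 133 CPM and CDH5, an endothelial marker, at 58.3 CPM. The other listed fibroblast markers averaged at most 10.0 CPM there (COL1A1) and the other endothelial ones at most 2.17 CPM (PECAM1). COL1A1 was higher in HuCCT1 (20.1 CPM) and COL3A1 in KKU-100 (15.8 CPM, against 6.96 CPM in YSCCC). The part of these cell markers in the results was not tested. Of 15 listed receptor genes of immune cells, 9 stayed under 1 CPM in all libraries. Among these 9 were CTLA4, which had no counts, and CD28, which are not receptors of the 10 ligands. SIRPA, the receptor of CD47, was the most abundant of the 15, at a mean of 18.2 CPM in HuCCT1, 12.4 CPM in YSCCC and 63.0 CPM in KKU-100.

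The first comparison asks how much of each ligand the control lines made. Levels are compared between genes in the authors' TPM, which corrects for transcript length, as the mean ± SD of 3 shControl libraries. In HuCCT1 the order was led by CD47 at 215 ± 29.0 TPM and PVR at 183 ± 14.7 TPM, and these did not overlap. LGALS9 came next by its mean of 144 ± 152 TPM, but replicate 2 was at 318 TPM and the others at no more than 72.2 TPM, so replicate 2 alone set that place and the range overlapped those of CD47 and PVR. NECTIN2, CD274 and CD276 followed at 132, 84.2 and 63.7 TPM, a run in which each overlapped the next. TNFRSF14 at 36.4 TPM, PDCD1LG2 at 15.0 TPM and VTCN1 at 1.47 TPM closed the measurable list without overlap. YSCCC was led by CD276 at 288 ± 80.3 TPM, which overlapped PVR at 184 ± 29.3 TPM. CD47 at 123 TPM and NECTIN2 at 107 TPM overlapped each other, VTCN1 stood alone at 16.5 TPM, and CD274 at 8.52 TPM overlapped LGALS9 at 7.74 TPM. In KKU-100, NECTIN2 at 295 TPM, PVR at 148 TPM, CD276 at 91.1 TPM and CD47 at 46.1 TPM followed each other without overlap. CD274 at 18.2 TPM, PDCD1LG2 at 11.9 TPM and LGALS9 at 10.8 TPM overlapped in turn. By means a different ligand led each line, none of them CD274, and PVR was the second in all, although single libraries of LGALS9 in HuCCT1 and of CD276 in YSCCC overlapped PVR.

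**Figure D1:**
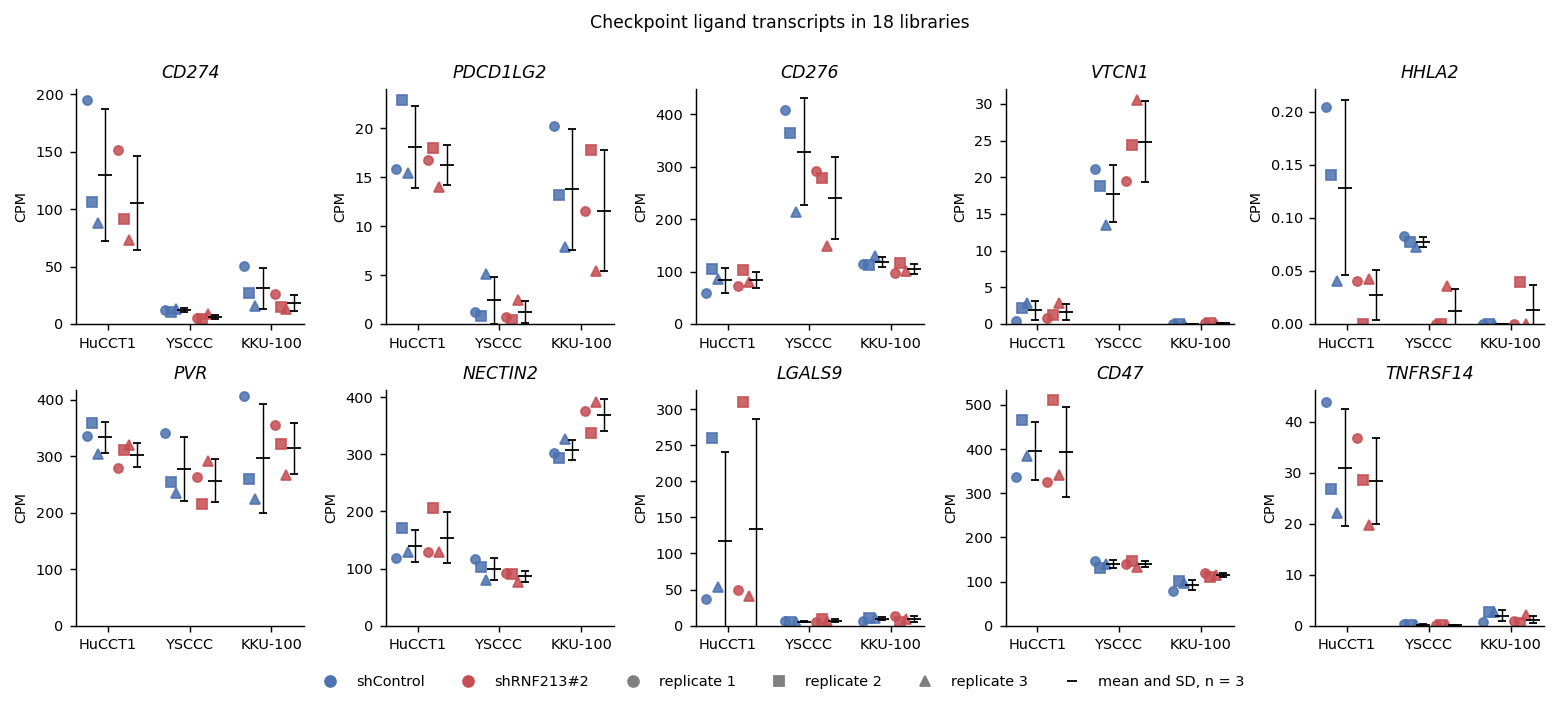
CPM (vertical axis, linear, from 0, with its own scale per gene) of the 10 ligands in the 18 libraries, by line on the horizontal axis; points are libraries, shapes are replicate numbers, and the bars are the mean and SD of 3 libraries, cut off at 0 where the SD exceeds the mean. CD274 is highest in HuCCT1, CD276 and VTCN1 in YSCCC and NECTIN2 in KKU-100, and LGALS9 stands out in both replicate 2 libraries of HuCCT1.

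Between lines, all values below are for the same gene and are given in CPM, and the tests come from 1 edgeR quasi-likelihood fit of the 9 shControl libraries. Each line enters a pair of the 3 contrasts, so these share libraries. For YSCCC over HuCCT1, 8 of the 9 tested ligands were called, 6 of them lower, where 58.4% of all 18010 tested genes were called and 28.1% were lower. For KKU-100 over HuCCT1, 6 of 9 were called, 5 of them lower, against 57.4% and 30.1% of all genes. For YSCCC over KKU-100, 7 of 9 were called, 4 of them lower, against 60.7% and 27.9%. The median log2 ratio of the ligands was -1.53, -2.07 and -0.88, against 0.02, -0.01 and 0.09 for all tested genes. HHLA2 did not pass the filter on low counts.

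Both ligands of PD-1 were low in YSCCC. CD274 (chr9:5450503-5470566, plus strand, GRCh38 as in the files) was at 195.5, 106 and 88.0 CPM in HuCCT1 replicates 1, 2 and 3, at 12.4, 10.4 and 13.4 CPM in YSCCC and at 50.9, 26.7 and 15.3 CPM in KKU-100. The 3 lines did not overlap, and the lowest HuCCT1 library lay above every other. The log2 ratio was -3.46 for YSCCC over HuCCT1 (SE 0.44, adjusted p = 0.000106) and -2.07 for KKU-100 over HuCCT1 (SE 0.42, adjusted p = 0.00177). For YSCCC over KKU-100 it was -1.39 (SE 0.42, adjusted p = 0.0148), a call lost without YSCCC replicate 2 (adjusted p = 0.0553) and without KKU-100 replicate 1, where the ratio was -0.83 (adjusted p = 0.0672). PDCD1LG2, which lies downstream of CD274 on the same strand at chr9:5510531-5571282, was at 15.8, 22.9 and 15.5 CPM in HuCCT1, at 1.24, 0.845 and 5.12 CPM in YSCCC and at 20.2, 13.2 and 7.91 CPM in KKU-100. Its YSCCC libraries lay below all others. Its ratio was -2.93 for YSCCC over HuCCT1 (SE 0.62, adjusted p = 0.00235) and -2.54 for YSCCC over KKU-100 (adjusted p = 0.00476), and the difference between KKU-100 and HuCCT1 was within the spread (-0.40, SE 0.57, adjusted p = 0.577).

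CD276 and VTCN1, B7 family ligands that do not bind PD-1, were highest in YSCCC. CD276, on chromosome 15, was at 408, 365 and 213 CPM in YSCCC, against 58.5, 105 and 85.7 CPM in HuCCT1 and 114, 112 and 129 CPM in KKU-100. Its lowest YSCCC library exceeded every library of the other lines. YSCCC was higher than HuCCT1 by 1.95 (SE 0.27, adjusted p = 0.000183) and higher than KKU-100 by 1.44 (SE 0.27, adjusted p = 0.001) on the log2 scale, whereas KKU-100 over HuCCT1 gave 0.51 (SE 0.27, adjusted p = 0.126). VTCN1, on chromosome 1, was at 21.1, 18.7 and 13.5 CPM in YSCCC and at 0.449, 2.15 and 2.89 CPM in HuCCT1, a log2 ratio of 3.24 (SE 0.57, adjusted p = 0.000714). In KKU-100 it was nearly absent, with 1 count over the 3 shControl libraries against 1370 in YSCCC and 128 in HuCCT1. The ratio of YSCCC to KKU-100 was 1208, with an exact 95% counting interval of 216 to 47742, and that of HuCCT1 to KKU-100 was 115, with an interval of 20.4 to 4595. HHLA2, on chromosome 3, was not measurable in these lines. It had 19 counts over all 18 libraries, at most 5 in any of them, and none in the KKU-100 shControl libraries, which allows up to 0.0464 CPM from the 3 counts that a count of 0 leaves possible. These intervals and limits cover counting error only.

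PVR and NECTIN2, which lie near each other on chromosome 19, differed in how they varied. PVR was at 304 to 359 CPM in HuCCT1, 234 to 341 CPM in YSCCC and 224 to 406 CPM in KKU-100, so its lines overlapped. It was not called in any of the 3 contrasts (log2 ratios of -0.30, -0.17 and -0.13, adjusted p = 0.299, 0.558 and 0.663). NECTIN2 was highest in KKU-100, at 302, 294 and 327 CPM, against 118, 172 and 129 CPM in HuCCT1 and 117, 103.5 and 79.2 CPM in YSCCC. No KKU-100 library came near those of the other lines. KKU-100 was higher than HuCCT1 by 1.13 (SE 0.19, adjusted p = 0.000616) on the log2 scale, and YSCCC was at -1.65 against KKU-100 (SE 0.20, adjusted p = 5.5e-05). The smaller ratio of YSCCC to HuCCT1, -0.51 (SE 0.19, adjusted p = 0.0407), kept its call in 4 of 14 other settings.

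The remaining ligands were all highest in HuCCT1, with LGALS9 counted without its near-identical copies LGALS9B and LGALS9C. LGALS9, on chromosome 17, was at 36.9, 260 and 53.1 CPM in HuCCT1, at 5.86, 5.69 and 4.54 CPM in YSCCC and at 6.99, 11.1 and 10.9 CPM in KKU-100. HuCCT1 replicate 2 stood far above its own group, yet the other HuCCT1 libraries still exceeded all of YSCCC and KKU-100. The ratio to HuCCT1 was -4.47 in YSCCC (adjusted p = 0.000302) and -3.59 in KKU-100 (adjusted p = 0.000895), and without HuCCT1 replicate 2 these were -3.11 (adjusted p = 4.64e-05) and -2.23 (adjusted p = 0.000206). CD47, on chromosome 3, was at 336, 465 and 385 CPM in HuCCT1, at 147, 131 and 141 CPM in YSCCC and at 78.8, 102 and 95.7 CPM in KKU-100. Its lines did not overlap, and YSCCC over HuCCT1 gave -1.53 (SE 0.17, adjusted p = 4.46e-05) and KKU-100 over HuCCT1 gave -2.11 (SE 0.18, adjusted p = 5.31e-06). YSCCC over KKU-100 gave 0.57 (adjusted p = 0.0133), and in the shRNF213#2 libraries this ratio was 0.29 (adjusted p = 0.175). TNFRSF14, on chromosome 1, had the widest range after VTCN1: 44.0, 26.8 and 22.1 CPM in HuCCT1, 0.673, 2.60 and 2.60 CPM in KKU-100, and 15 counts in all in YSCCC, or 0.194 CPM on average. YSCCC over HuCCT1 gave -7.31 (SE 0.60, adjusted p = 6.1e-06), and KKU-100 over HuCCT1 gave -3.98 (SE 0.48, adjusted p = 6.2e-05).

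**Figure D2:**
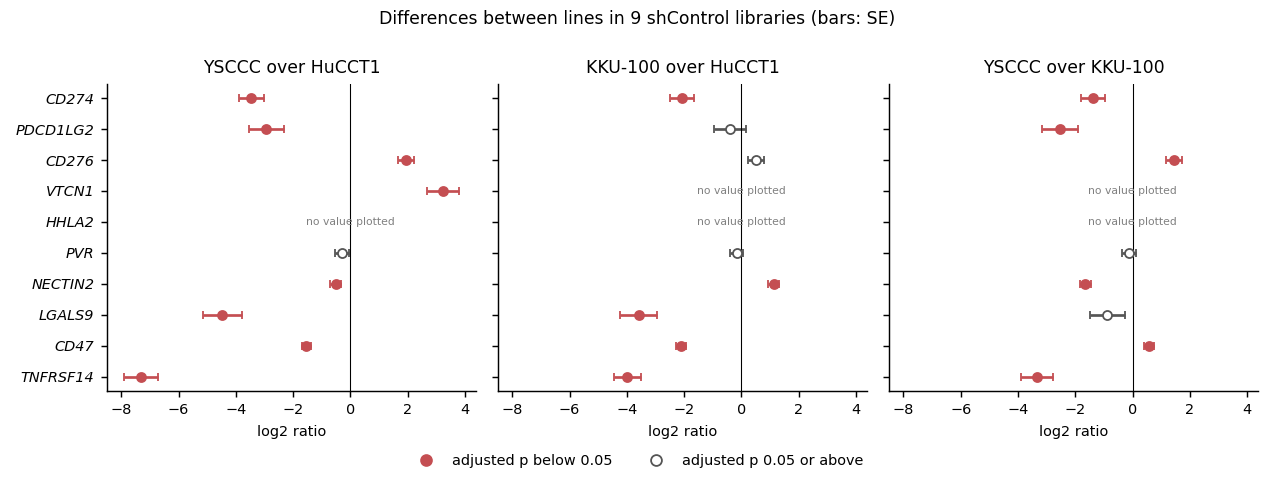
Log2 ratio of the ligands between control lines (horizontal axis, same scale in each panel) with its SE as bar, from the fit of 9 shControl libraries; filled points have an adjusted p below 0.05, and no value is plotted where a group held at most 1 count or the gene was not tested. CD274, LGALS9, CD47 and TNFRSF14 lie left of 0 in both panels against HuCCT1, and PVR lies close to 0 in all panels.

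The second comparison asks what the hairpin against RNF213 did to each ligand, with libraries of the same line and replicate number taken as pairs. It was fitted within each line and once over all 18 libraries for the mean of the 3 effects. CD274 was the ligand that stood out. It was lower in the shRNF213#2 library of all 9 pairs, a property of 1.19% of the 19143 genes tested over all libraries. Its mean effect was -0.67 on the log2 scale (SE 0.08, adjusted p = 0.000702), or 63.0% of control. It was the 1 ligand of 9 tested that passed for the mean effect, where 2.90% of all tested genes were called and 1.47% were called lower. The unadjusted p was below 0.05 for 4 of the 9, and the median of the 9 was -0.04 against 0.00 for all tested genes.

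In YSCCC, CD274 was at 12.4, 10.4 and 13.4 CPM in the shControl libraries and at 5.30, 4.57 and 8.26 CPM in the shRNF213#2 libraries of the same numbers. The arms did not overlap, as for 10.7% of the genes tested in this line, and CD274 fell to 49.1% of control (-1.03 on the log2 scale, SE 0.16, adjusted p = 0.00219). In KKU-100 it was at 50.9, 26.7 and 15.3 CPM in shControl and at 26.2, 14.7 and 13.1 CPM in shRNF213#2. Each pair was lower, but the shControl libraries spread so widely that the arms overlapped, and the effect of -0.69 (SE 0.17) missed the threshold (adjusted p = 0.139). In HuCCT1, the line with the most CD274, the pairs went from 195.5 to 151, from 106 to 91.7 and from 88.0 to 73.3 CPM. The effect there was -0.28 (SE 0.08, adjusted p = 0.301, unadjusted p = 0.00653). The arms of CD274 and of all other ligands overlapped in HuCCT1, whereas 8.52% of the genes tested there did not. The effect in YSCCC minus that in HuCCT1 was -0.74 (SE 0.20, adjusted p = 0.233), that in KKU-100 minus HuCCT1 was -0.42 (adjusted p = 0.393) and that in YSCCC minus KKU-100 was -0.33 (adjusted p = 0.441), so the lines were not shown to differ. The replicate pairing carried these calls: without it CD274 was at -0.995 in YSCCC (adjusted p = 0.921) and at -0.69 for the mean effect (adjusted p = 0.606), where the calls over all tested genes were 0.00% in HuCCT1, 0.00% in YSCCC, 0.0134% in KKU-100 and 0.146% for the mean. Without replicate 1 of every line the values were -0.93 in YSCCC (adjusted p = 0.0569) and -0.57 for the mean (adjusted p = 0.0591).

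**Figure D3:**
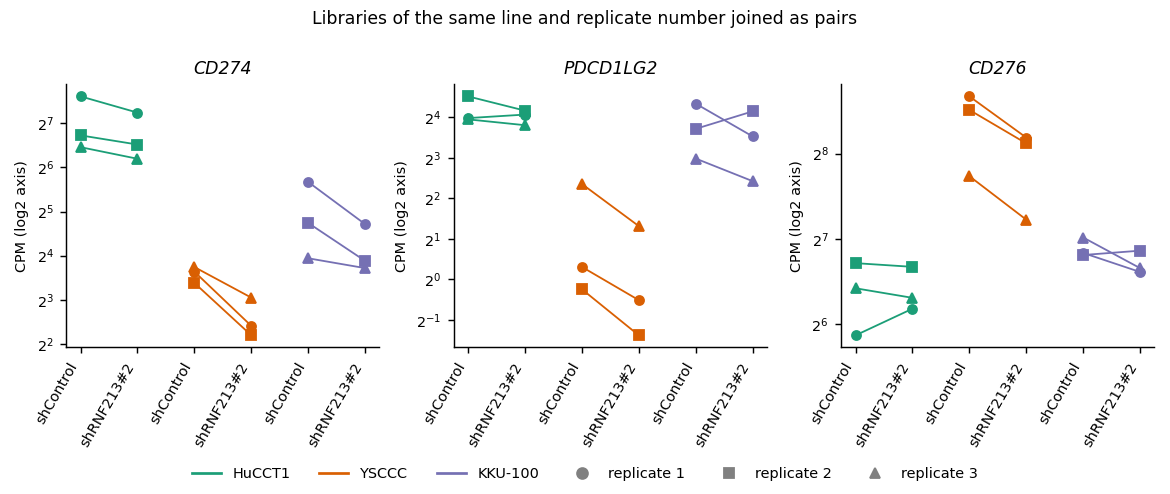
CPM (vertical axis, log2 scale) of CD274, PDCD1LG2 and CD276 in shControl and shRNF213#2 libraries of each line; each line joins the libraries of 1 replicate number. All 9 segments of CD274 slope down, and all 3 YSCCC segments slope down for each gene.

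PDCD1LG2, the other PD-1 ligand, was lower in 7 of 9 pairs. In YSCCC it was at 1.24, 0.845 and 5.12 CPM in shControl and at 0.701, 0.384 and 2.49 CPM in shRNF213#2, on 10 to 141 counts per library. Every pair was lower while the arms overlapped, since replicate 3 was 4.80 times the mean of the other YSCCC libraries. It fell to 50.1% of control (SE 0.26 on the log2 scale, adjusted p = 0.0312), and this call was lost when any single replicate was left out (adjusted p = 0.129, 0.0865 and 0.162) and with DESeq2 (adjusted p = 0.132). In KKU-100 the pairs went from 20.2 to 11.6, from 13.2 to 17.7 and from 7.91 to 5.37 CPM, and in HuCCT1 they went from 15.8 to 16.8, from 22.9 to 17.96 and from 15.5 to 14.0 CPM. Neither line was called (-0.31, SE 0.26 and -0.14, SE 0.12), and the mean effect was -0.48 (SE 0.13, adjusted p = 0.0707).

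CD276 was the third ligand to fall in YSCCC, the line in which it led all ligands. The pairs there went from 408 to 292, from 365 to 278 and from 213 to 150 CPM. All 3 were lower by a like amount, the arms overlapped because replicate 3 was low in both, and the fitted effect was -0.46 (SE 0.09, adjusted p = 0.00586). That call was lost without replicate 1 (adjusted p = 0.0750) and without the pairing (adjusted p = 0.999). HuCCT1 went from 58.5 to 72.6, from 105 to 102 and from 85.7 to 79.3 CPM, and KKU-100 from 114 to 97.8, from 112 to 116 and from 129 to 101 CPM. The effects were 0.05 and -0.18, neither was called, and the mean effect was -0.20 (SE 0.06, adjusted p = 0.104). Its difference between YSCCC and HuCCT1, -0.51 (SE 0.15, adjusted p = 0.262), was not called. With CD274 and PDCD1LG2, 3 of 8 ligands tested in YSCCC fell and none rose, in a line where 8.25% of tested genes were called and 4.56% were called lower. The median of the 8 was -0.15, against 0.01 for all tested genes.

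Of the other B7 ligands, VTCN1 in YSCCC was at 21.1, 18.7 and 13.5 CPM in shControl and at 19.5, 24.5 and 30.6 CPM in shRNF213#2. It was higher in 2 of the 3 pairs, and the value of 0.48 (SE 0.19) was not called (adjusted p = 0.142), although it was called with no filter on low counts (adjusted p = 0.00835). HuCCT1 gave -0.14 (SE 0.28) for VTCN1, and in KKU-100 there were 6 counts over the shRNF213#2 libraries against 1 over the shControl libraries. HHLA2 in YSCCC had 2 counts in each shControl library and 0, 0 and 1 in shRNF213#2, which is too few for a fold.

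For the TIGIT ligands, PVR stayed between -0.14 and 0.12 in the lines (adjusted p = 0.601, 0.661 and 0.715), with 5 of 9 pairs lower. NECTIN2 in KKU-100 was at 302, 294 and 327 CPM in shControl and at 377, 337 and 391 CPM in shRNF213#2. Its arms did not overlap, as for 12.5% of the genes tested in this line, but the value of 0.26 (SE 0.11) was not called (adjusted p = 0.313). In YSCCC, NECTIN2 was lower in all 3 pairs (117 to 92.2, 103.5 to 91.1 and 79.2 to 75.9 CPM, -0.20, SE 0.10, adjusted p = 0.243), and in HuCCT1 it was higher in all 3 (0.13, SE 0.08, not called). The difference between YSCCC and KKU-100 was -0.45 (SE 0.13, adjusted p = 0.0755 by edgeR). DESeq2 called it (-0.46, adjusted p = 0.0190).

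CD47 behaved like NECTIN2 in KKU-100: 78.8, 102 and 95.7 CPM in shControl against 120, 110 and 115 CPM in shRNF213#2. These arms did not overlap, and the value of 0.33 (SE 0.12) was not called (adjusted p = 0.268, unadjusted p = 0.0303). CD47 was at 0.00 in YSCCC (SE 0.09) and -0.03 in HuCCT1 (SE 0.09). Counted without its copies, which are given below, LGALS9 had no common direction. Its pairs went from 36.9 to 49.1, from 260 to 309 and from 53.1 to 41.1 CPM in HuCCT1, from 5.86 to 5.26, 5.69 to 9.37 and 4.54 to 6.02 CPM in YSCCC, and in KKU-100 from 6.99 to 13.5, 11.1 to 5.36 and 10.9 to 9.06 CPM. Of the 9 pairs 5 were higher, and the mean effect was 0.11 (SE 0.16, adjusted p = 0.817). For TNFRSF14, HuCCT1 gave -0.11 (SE 0.10, adjusted p = 0.709). KKU-100 gave -0.73 (SE 0.46, adjusted p = 0.471), a value that was -0.079 without replicate 2 and -1.15 without replicate 1. In YSCCC it had 6, 4 and 5 counts in shControl and 1, 1 and 4 in shRNF213#2, too few to pass the filter within the line.

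In HuCCT1, edgeR called none of 9 ligands and DESeq2 none, with 1 at an unadjusted p below 0.05, in a line where 0.140% of tested genes were called. In KKU-100, edgeR called none of 8, with 2 at an unadjusted p below 0.05 (CD274 and CD47), and 0.443% of all tested genes were called. DESeq2 called CD274 in KKU-100 (-0.69, adjusted p = 0.0344). The median of the ligands was -0.11 in HuCCT1 and -0.15 in KKU-100, against 0.00 for all tested genes in both. For the differences between lines, edgeR called none of 9 ligands in any of the 3, with 4, 2 and 1 at an unadjusted p below 0.05 for YSCCC minus HuCCT1, KKU-100 minus HuCCT1 and YSCCC minus KKU-100. The shares of all genes called were 0.0470%, 0.235% and 2.63%.

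**Figure D4:**
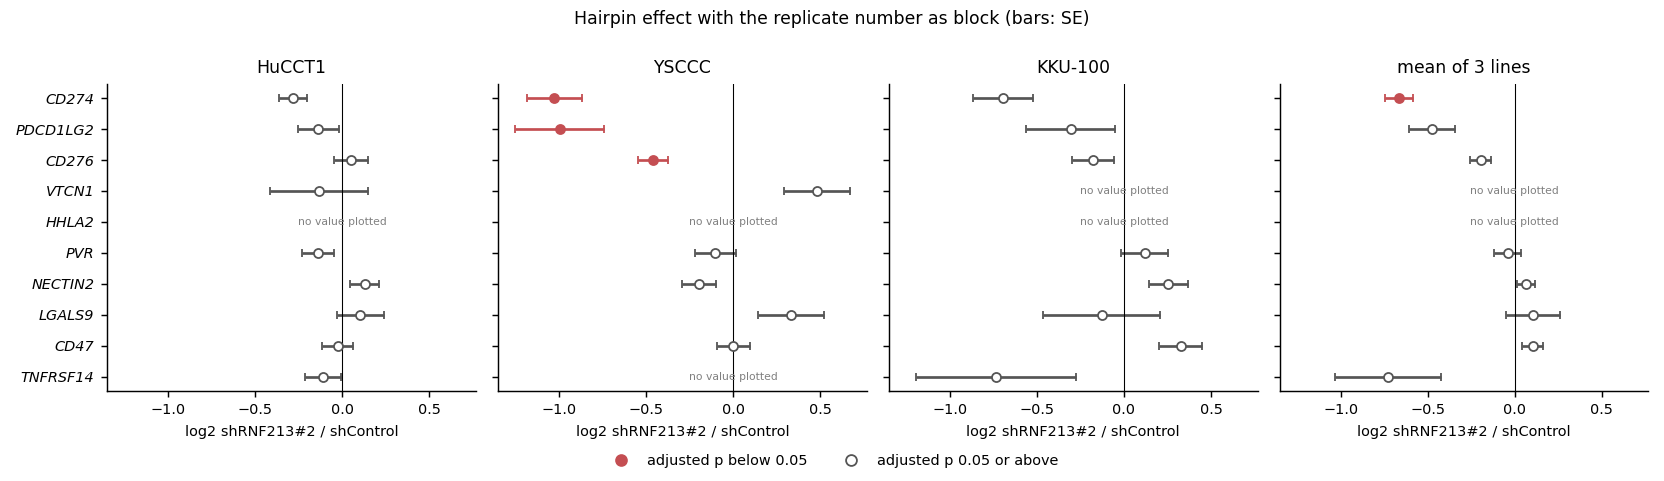
Log2 effect of shRNF213#2 over shControl (horizontal axis, same scale in each panel) for each ligand in the 3 lines and as their mean, with its SE as bar; filled points have an adjusted p below 0.05, and no value is plotted for genes not tested or with at most 1 count in an arm. CD274 lies left of 0 in all panels, and the filled points are CD274, PDCD1LG2 and CD276 in YSCCC and CD274 for the mean.

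Overlapping genes bear on these counts, because whether reads were assigned by strand is not stated in the sources at hand. Neighbours without overlap, such as JAK2, are given for their position only. AL162253.2, on the minus strand, overlaps CD274 and PDCD1LG2, and had 24 to 351 counts per library against 119 to 4787 for CD274. It was lower in 8 of 9 pairs, with a mean effect of -0.47 (SE 0.12, adjusted p = 0.0544). JAK2, which lies upstream of CD274 on the same arm of chromosome 9 and encodes the kinase of the interferon-gamma receptor, was lower in 8 of 9 pairs and fell by 0.30 for the mean effect (SE 0.07, adjusted p = 0.0269) and by 0.48 in YSCCC (SE 0.12, adjusted p = 0.0261). Within 500 kb of the PD-1 ligands, a window chosen after values were seen, 11 other genes were tested, the overlapping AL162253.2 among them. Of these, 9 had a negative mean effect and JAK2 was the 1 called, where 2.90% of all tested genes were called and 1.47% were called lower. The median of the 11 was -0.14, against 0.00 for all tested genes. For PVR the partners are CEACAM19 and AC243964.3, for NECTIN2 AC011481.2 and for TNFRSF14 the antisense TNFRSF14-AS1, which was at 9.20 CPM in HuCCT1 shControl. LGALS9 has the near-identical copies LGALS9B and LGALS9C, among which reads may be split, so its values are uncertain. In KKU-100, LGALS9B had 90, 122 and 278 counts in shControl and 237, 334 and 366 in shRNF213#2, higher in each pair (0.93, SE 0.24, adjusted p = 0.150). LGALS9C had 9, 24 and 38 counts in shControl there and 41, 65 and 63 in shRNF213#2. It too was higher in each pair (1.22, SE 0.34, adjusted p = 0.168).

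The ligands were next set beside 38 interferon-stimulated genes, whose summed CPM differed between lines and within HuCCT1. The sum was 1266 to 1569 CPM in YSCCC and 12254 to 20941 CPM in KKU-100. In HuCCT1 it was 12925 and 12458 CPM in the replicate 2 pair and 1461 to 2443 CPM in the other libraries, so replicate 2 was at 6.85 times their mean. LGALS9 was at 260 and 309 CPM in that same pair, 6.32 times the mean of the other HuCCT1 libraries, which held 36.9 to 53.1 CPM. In that pair CD274, at 106 and 91.7 CPM, lay above every YSCCC and KKU-100 library. It was within the range of the other HuCCT1 libraries, 73.3 to 195.5 CPM, and at 0.777 times their mean. Replicate 1 held 195.5 and 151 CPM, and replicate 3 held 88.0 and 73.3 CPM. NECTIN2 was at 1.49 times, CD47 at 1.41 times, CD276 at 1.40 times and PDCD1LG2 at 1.32 times the mean of the others, whereas PVR was at 1.08 times, VTCN1 at 0.984 times and TNFRSF14 at 0.902 times. Across lines LGALS9, counted without its copies, did not follow the sum. KKU-100 had the highest sums and LGALS9 at 5.36 to 13.5 CPM, a range that overlapped the 4.54 to 9.37 CPM of YSCCC. The copy LGALS9B was at 4.66 to 16.2 CPM in KKU-100 and at 0.505 to 0.729 CPM in YSCCC. Reads may be split between them, so the overlap holds only for LGALS9 as counted. These replicate values are a description, without a test, and leaving out the HuCCT1 replicate 2 pair gave a mean hairpin effect on CD274 of -0.68 (adjusted p = 0.0034).

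**Figure D5:**
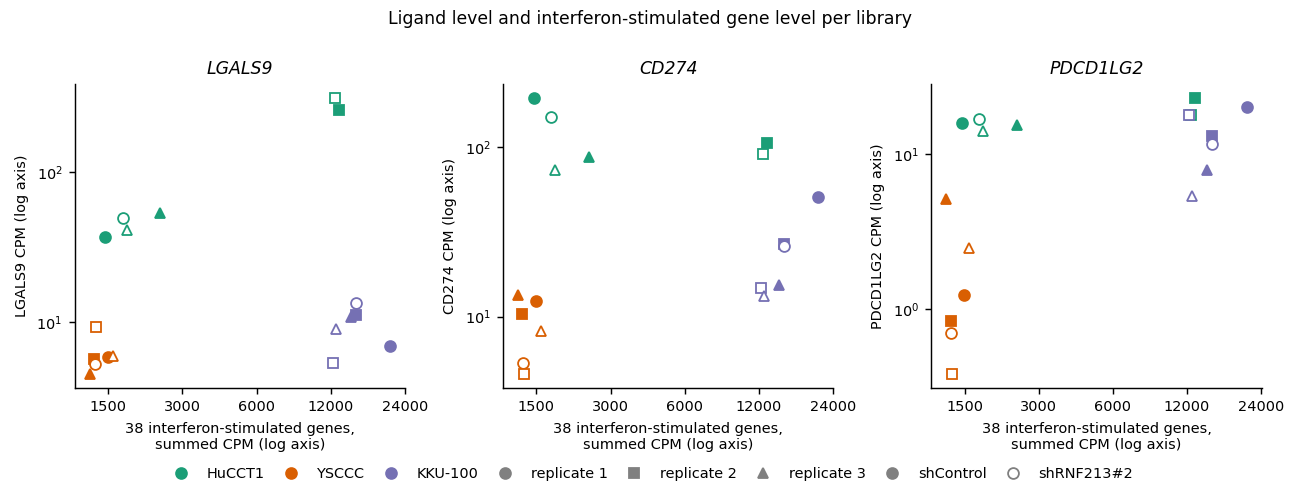
CPM of LGALS9, CD274 and PDCD1LG2 (vertical axes, log scale) against the summed CPM of 38 interferon-stimulated genes (horizontal axis, log scale) in 18 libraries; colours are lines, shapes are replicate numbers, filled points are shControl and open points shRNF213#2. The HuCCT1 replicate 2 squares are far right and high for LGALS9. For CD274 they are far right, within the range of the other HuCCT1 libraries and above all YSCCC and KKU-100 libraries. The KKU-100 libraries are far right and low for LGALS9.

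Among lists of related genes, the interferon-stimulated genes, which were also the longest list, held the most calls with the hairpin. Of the 38, edgeR called 4 lower and none higher in KKU-100, where 0.443% of all genes were called, and DESeq2 called 9. The 4 were IFIT2 (-1.41, adjusted p = 0.0225), RSAD2 (-1.24, adjusted p = 0.0248), the T cell chemokine CXCL11 (-1.26, adjusted p = 0.0345) and OASL (-0.996, adjusted p = 0.0462). The summed level in KKU-100 was 14468 to 20941 CPM in shControl and 12254 to 15171 CPM in shRNF213#2, so the arms overlapped. By pair it was lower each time, from 20941 to 15171, from 15169 to 12254 and from 14468 to 12569 CPM, without a test of the sum. For the mean effect 5 of 38 fell and none rose, where 2.90% of all genes were called, among them IFIT2 (-0.78, adjusted p = 0.000219) and the RNA sensors DDX58 (-0.34, adjusted p = 0.0340) and IFIH1 (-0.28, adjusted p = 0.0399), and DESeq2 called 8. Of the 38, IFIT2, IFIT3 and OASL differed between YSCCC and KKU-100, where 2.63% of all genes did. In YSCCC, where CD274 fell and 8.25% of all genes were called, 35 of the 38 were tested: IFI44L (0.93) and IFI44 (0.63) rose and the peptide transporter TAP1 fell by 0.35 (adjusted p = 0.0496). The count called there was near the share of all genes. In HuCCT1 edgeR called none of 37, with 5 at an unadjusted p below 0.05 and 2 called by DESeq2.

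The other lists held at most 1 gene called by edgeR in any hairpin fit. Of 21 interferon and JAK-STAT regulators of CD274, JAK2 was the 1 that fell in YSCCC and for the mean effect, against 8.25% and 2.90% of all genes called. In HuCCT1 and KKU-100 edgeR and DESeq2 called none of them, with 3 and 2 at an unadjusted p below 0.05. Of 14 genes that handle the CD274 or CD47 protein, the glycosyltransferase subunit STT3A fell in YSCCC by 0.30 (adjusted p = 0.0491). HIP1R, which sorts CD274 to lysosomes, fell for the mean effect by 0.38 (adjusted p = 0.0417). Each was the 1 gene of the 14 called in that fit, against 8.25% and 2.90% of all genes, and the count in YSCCC was near that share. STT3A was also the 1 that differed between YSCCC and KKU-100 (-0.58, adjusted p = 0.0291), where 2.63% of all genes did.

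Among 28 other checkpoint and costimulatory ligands, the TNF family ligand TNFSF18 fell in HuCCT1 by 1.45 (SE 0.16, adjusted p = 0.0215), the ectonucleotidase ENTPD1 (CD39) fell in YSCCC by 0.66 (SE 0.14, adjusted p = 0.0146), and NECTIN3 rose for the mean effect by 0.30 (SE 0.07, adjusted p = 0.0306). Each was the 1 gene of its list called in that fit, of 21, 23 and 24 tested, against 0.140%, 8.25% and 2.90% of all genes, and the last pair of counts was near or below those shares. In KKU-100 edgeR called none of 22, with 3 at an unadjusted p below 0.05 and 1 by DESeq2. Of the 15 receptors, 4, 6 and 4 passed the filter in HuCCT1, YSCCC and KKU-100, and neither tool called any, with 1, 1 and 0 at an unadjusted p below 0.05. Between control lines, 11 of 23 other ligands tested were higher and 3 lower in YSCCC than in HuCCT1, a share near the 58.4% of all genes called there. Of the 38 interferon-stimulated genes 37 were lower in YSCCC than in KKU-100 and none higher, where 27.9% of all genes were called lower. Among the other ligands, CD40 was higher than in HuCCT1 in both YSCCC (log2 ratio 9.22) and KKU-100 (8.22), and NECTIN4 was higher in YSCCC (log2 ratio 2.42) and lower in KKU-100 (-5.49).

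Genes with a pattern like that of CD274 were ranked by Pearson's r of log2 CPM with line means removed, over 18 libraries and 9600 genes with at least 5 CPM in every line. The 5 closest were CDK8 (0.859), a kinase of the Mediator complex, NFKBIE (0.849), an inhibitor of NF-kappaB, NAA20 (0.845), a subunit of an N-terminal acetyltransferase, ZNF697 (0.840) and EIF2B2 (0.837), a subunit of a translation initiation factor. These r values are a description, and libraries of a pair share their replicate number. Of the ligands with enough counts, PVR ranked 734 (0.497), CD276 6102 (-0.13), LGALS9 6801 (-0.21), NECTIN2 6958 (-0.23) and CD47 8563 (-0.44).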

How the data were processed

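The 18 deposited files hold 1 library each. Per the file headers, the authors give raw counts per gene and TPM beside other scaled columns that were not used here. The deposited counts entered all tests, and the authors' TPM served to order genes within a line. The submitters' processing notes name build GRCh38 and, among other tools, the aligner STAR 2.5.1b, HTSeq 0.6.1p1, which counts reads, and StringTie 2.1.6. The notes do not say which tool made which column or whether counting used strand.

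CPM were computed with TMM factors over 18 libraries. Tests used edgeR 4.0.16 under R 4.3.3 (quasi-likelihood F test, two-sided; filterByExpr with minimum count 10 and minimum total 15), with Benjamini-Hochberg adjustment over all tested genes and a threshold of 0.05. Each line was fitted with the replicate number as block, all 18 libraries with 9 line-by-replicate pairs, and the 9 shControl libraries with 3 line means. The replicates are separate samples by label only, so the p-values measure the spread between these samples. The replicate numbers pair the arms: deviations from group means of same-numbered libraries correlated at 0.707 to 0.787 in HuCCT1, 0.723 to 0.902 in YSCCC and 0.404 to 0.730 in KKU-100, above the minimum of 0.1. Differently numbered YSCCC libraries reached 0.656. Without the pairing edgeR called 0, 0 and 2 genes in the 3 lines, against 22, 1397 and 66 with it.

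Alternatives were no block (a block for the control levels), RLE factors, no filter, DESeq2 1.42.0, leaving out replicates, and the shRNF213#2 libraries for line differences. Leaving out single pairs was added after seeing the data. The fits were tested on simulated data. Named genes were the 10 ligands, RNF213, up to 4 called genes per list and comparison with the smallest adjusted p, and the 5 genes most like CD274. TNFRSF14-AS1, LGALS9B and other overlapping or copied genes, and JAK2 as a neighbour, were added after their values were seen. The ligands and lists were chosen with earlier results of these data known. Promoter windows are RefSeq sequences of GRCh38.p14.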

Additional observations from a re-analysis of the deposited data

How the results depend on the processing

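Of 762 values of single ligands under other settings, 712 kept their direction and side of the threshold, 24 lost a call, 7 gained one and 19 reversed. The count of ligands called in YSCCC, 3, was 0 with no replicate block and 0 to 2 with a replicate left out. For the mean effect the count of 1 became 0 with no replicate block, 2 with no filter, 2 with DESeq2 and 0 to 2 with a replicate left out. DESeq2 called 1 ligand in KKU-100 and 1 for YSCCC minus KKU-100, where edgeR called 0. The mean effect on CD274 kept its call in 8 of 10 settings, from -0.80 to -0.57. LGALS9 for YSCCC over KKU-100 was called without HuCCT1 replicate 2 (-0.88, adjusted p = 0.0167). The pairing bears on every call of a hairpin effect on a ligand. A replicate block between the control lines took away the call of NECTIN2 for YSCCC over HuCCT1 (-0.51, adjusted p = 0.0657).

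None of the reversed values was called. With a replicate left out, HuCCT1 effects ran from -0.075 to 0.13 for CD276, -0.043 to 0.33 for LGALS9, -0.35 to 0.16 for VTCN1 and -0.11 to 0.046 for CD47. YSCCC effects ran from -0.085 to 0.047 for CD47 and -0.31 to 0.031 for PVR, and CD47 was at -0.00048 with RLE factors and with DESeq2. LGALS9 in KKU-100 ran from -0.65 to 0.33. Mean effects ran from -0.16 to 0.085 for PVR and -0.064 to 0.19 for LGALS9, and PDCD1LG2 for KKU-100 minus HuCCT1 ran from -0.67 to 0.24. PVR between control lines ran from -0.31 to 0.16 for YSCCC over KKU-100 and -0.47 to 0.0037 for KKU-100 over HuCCT1, and the latter was 0.053 in the shRNF213#2 libraries. The causes were not tested. Depth limits HHLA2 in all lines, VTCN1 in KKU-100 and TNFRSF14 in YSCCC.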
